A study of Homo sapiens with 3 samples.

Results

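The regions described here are peaks of MECOM ChIP-seq that lay within the body of a gene with a symbol, away from the gene's start. ChIP-seq precipitates DNA with a protein bound to it and sequences that DNA, and a peak is a stretch where fragments pile up above the local background. A peak was counted as a gene-body peak when the authors' annotation placed it inside its assigned gene or over the gene's end, when its deposited distance to the gene start exceeded 1000 bp, and when the gene had a symbol. Of the 3462 peaks in the list, 3419 had an annotated gene, and 465 of these met the rule (13.6%, exact binomial 95% interval 12.5 to 14.8). They belonged to 443 genes. Inside the gene lay 464 of the peaks, and 1 peak, at RPRM, lay over the gene's end.

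The libraries came from HEK293T, a human embryonic kidney cell line, in 3 groups of 1 library each. The WT group received AM-tagged wild-type MECOM, the R750W group received an AM-tagged mutant form, and the Vector group received the pMYS-IG vector. All were precipitated with an antibody to the AM tag, a short peptide, after fixation and digestion with micrococcal nuclease. MECOM was thus supplied from a construct in a kidney line, and the label texts differ on whether it was transfected or transduced. The peaks are those of the WT library. The R750W and Vector lists were not analysed here, so the signal of the tag antibody without MECOM was not examined, and no value has a replicate. The sources used here do not give the sequencing depth of the library. Peaks of one library are not replicates, so no p-value is given. The intervals of fold cover counting error in the fragments only. Those of shares, medians and their differences describe the list of peaks, cover no spread between libraries, and are not tests.

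MECOM, also called EVI1, is a zinc finger transcription factor of blood stem cells whose raised expression marks a class of myeloid leukaemias. Its first group of fingers is known to bind GATA-like sequences and its second group ETS-like sequences, and it recruits corepressors. The body of a gene holds exons and introns. It can also hold inner start sites, from which shorter transcripts begin, and regulatory elements of the gene or of its neighbours.

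Some gene-body peaks lay on a listed start of their own gene, though not always an inner one. RefSeq, on the GRCh38.p14 build, lists a start of the assigned gene under 48 of the 450 gene-body peaks on chromosomes for which starts were used (10.7%, 7.97 to 13.9). The outer end of the gene in RefSeq was counted among these starts. At 30 of the 48 the nearer edge of the peak was over 1000 bp from the deposited start, and the rest reached closer to it. The own-gene start windows that lay wholly under a peak with a deposited distance of over 5000 bp are printed here. They were chosen for holding a start, and 137 gene-body peaks had such a distance. The windows therefore do not show what DNA lay under the other deep peaks, which was not examined. Each window is from RefSeq, runs 5′ to 3′ on the gene's strand, and holds 250 bases before the start and 50 after it. Capitals mark CpG sites, the CG pairs that are dense at many housekeeping starts. The window of MME, the neprilysin peptidase, is chr3:155079761-155080060 on the plus strand, 55540 bp into the gene by the deposited distance of its peak. That of EDARADD, an adaptor of the ectodysplasin receptor, is chr1:236395163-236395462 on the plus strand. That of DNAH14, a dynein heavy chain, is chr1:224929425-224929724 on the plus strand. That of CHN2, a GTPase-activating protein for RAC, is chr7:29146341-29146640 on the plus strand. That of NFKBIZ, a nuclear regulator of NF-kappa-B, is chr3:101849264-101849563 on the plus strand.
MME: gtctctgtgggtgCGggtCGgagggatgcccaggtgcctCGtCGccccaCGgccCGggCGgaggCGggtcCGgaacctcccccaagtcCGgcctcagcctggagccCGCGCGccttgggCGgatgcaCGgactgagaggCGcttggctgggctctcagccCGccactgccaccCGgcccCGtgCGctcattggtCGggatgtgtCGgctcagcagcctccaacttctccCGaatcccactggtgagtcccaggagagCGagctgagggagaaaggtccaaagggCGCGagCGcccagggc
EDARADD: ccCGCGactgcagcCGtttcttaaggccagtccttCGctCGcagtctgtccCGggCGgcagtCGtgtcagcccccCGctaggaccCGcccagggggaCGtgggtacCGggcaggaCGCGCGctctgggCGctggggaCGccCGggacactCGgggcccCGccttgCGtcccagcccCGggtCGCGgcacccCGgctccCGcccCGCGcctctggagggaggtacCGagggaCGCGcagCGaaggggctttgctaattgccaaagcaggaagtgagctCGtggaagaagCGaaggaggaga
DNAH14: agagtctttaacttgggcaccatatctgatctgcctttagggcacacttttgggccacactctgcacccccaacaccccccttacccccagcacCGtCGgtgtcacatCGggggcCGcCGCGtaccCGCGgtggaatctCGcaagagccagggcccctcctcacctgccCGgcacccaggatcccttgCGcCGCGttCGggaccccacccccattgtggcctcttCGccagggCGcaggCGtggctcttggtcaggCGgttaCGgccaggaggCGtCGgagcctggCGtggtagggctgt
CHN2: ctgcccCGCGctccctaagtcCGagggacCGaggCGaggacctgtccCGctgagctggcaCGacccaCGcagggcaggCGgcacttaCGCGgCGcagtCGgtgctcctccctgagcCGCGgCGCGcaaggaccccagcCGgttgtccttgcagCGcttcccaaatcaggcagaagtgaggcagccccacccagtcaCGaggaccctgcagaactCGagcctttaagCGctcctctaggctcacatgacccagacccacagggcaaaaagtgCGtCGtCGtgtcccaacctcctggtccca
NFKBIZ: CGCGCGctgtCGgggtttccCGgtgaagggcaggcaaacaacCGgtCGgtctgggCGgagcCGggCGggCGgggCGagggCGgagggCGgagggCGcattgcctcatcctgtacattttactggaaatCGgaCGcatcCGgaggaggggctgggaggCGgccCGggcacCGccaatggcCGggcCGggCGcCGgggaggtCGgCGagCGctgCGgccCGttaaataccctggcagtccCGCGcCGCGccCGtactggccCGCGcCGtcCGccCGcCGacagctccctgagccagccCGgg

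These 5 windows held 27, 34, 22, 25 and 42 CpG sites in the order printed. The enrichments of the peaks over them were ordinary. Fold enrichment, the ratio of fragments at the peak's highest point to the local background, was 4.18 at MME (95% Poisson interval 2.49 to 6.63), and 4.36 at EDARADD (3.11 to 5.97). It was 4.25 at DNAH14 (3.01 to 5.84), 5.04 at CHN2 (2.85 to 8.36) and 3.36 at NFKBIZ (2.16 to 5.02). All of these intervals overlapped. The peak at CHN2 also covered a RefSeq start of CPVL, a carboxypeptidase gene on the other strand.

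A high peak and a CpG-poor window are shown for contrast. MCC, a gene named for its mutation in colorectal cancers, had the highest peak with a start window of its own gene wholly under it, at 8.90-fold (5.78 to 13.2). That window is chr5:113488404-113488703 on the minus strand and held 25 CpG sites. The nearer edge of the MCC peak was 99 bp from the deposited start. PGAM1, the glycolytic phosphoglycerate mutase, shared with RTN2 the fewest CpG sites among the genes' own starts under gene-body peaks, 5 in the window. It is chr10:97427568-97427867 on the plus strand, partly under a peak of 5.21-fold (3.15 to 8.16).
MCC: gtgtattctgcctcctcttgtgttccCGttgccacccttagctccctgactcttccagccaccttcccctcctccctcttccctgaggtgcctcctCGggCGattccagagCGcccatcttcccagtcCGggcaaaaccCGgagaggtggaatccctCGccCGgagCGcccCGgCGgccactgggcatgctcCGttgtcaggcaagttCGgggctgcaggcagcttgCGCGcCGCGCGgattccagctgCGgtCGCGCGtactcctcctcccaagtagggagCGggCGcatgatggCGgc
PGAM1: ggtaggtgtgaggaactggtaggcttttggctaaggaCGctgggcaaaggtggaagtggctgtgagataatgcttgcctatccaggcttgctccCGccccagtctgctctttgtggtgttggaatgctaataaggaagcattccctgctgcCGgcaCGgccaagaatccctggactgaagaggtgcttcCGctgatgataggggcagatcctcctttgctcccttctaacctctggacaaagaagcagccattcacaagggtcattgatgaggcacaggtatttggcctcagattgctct

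Gene-body peaks were of ordinary height for the list. Their median fold enrichment was 4.75 (95% interval of the median 4.61 to 4.88), with quartiles of 4.08 and 5.63, against 4.82 (4.78 to 4.85) for the 2954 other annotated peaks. The difference of the median log2 fold, gene-body minus other peaks, was -0.023 (-0.066 to 0.020). Its direction turned with the distance limit, to 0.064 (0.0020 to 0.125) over 2000 bp and 0.070 (-0.0080 to 0.147) over 5000 bp. A median of 18 fragments stood at a gene-body peak and 18 at other peaks, over median backgrounds of 2.61 and 2.92 fragments. Median widths were 417 and 414.5 bp. Gene-body peaks ranged from 2.53 to 11.1-fold.

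**Figure D1:**
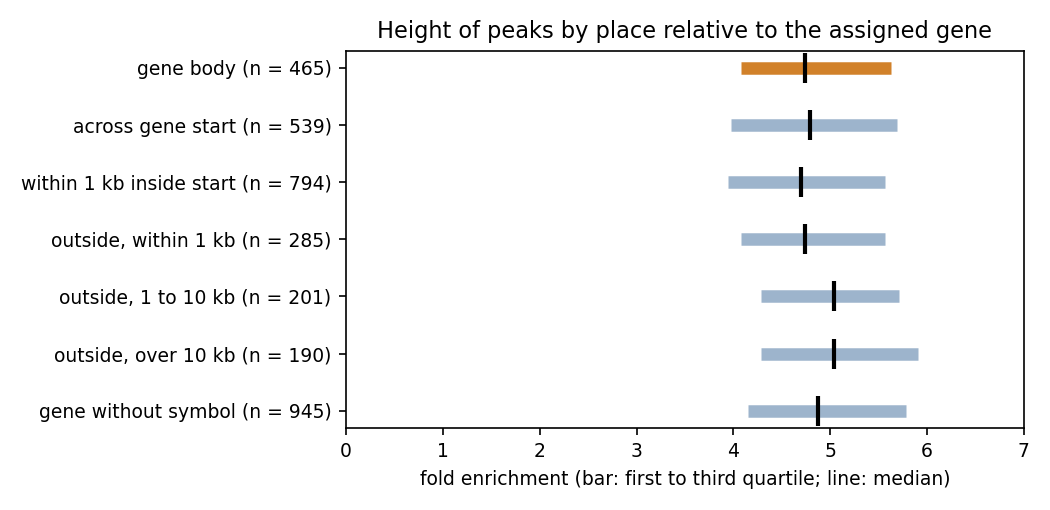
Fold enrichment of peaks by their place relative to the assigned gene. The horizontal axis is fold enrichment over local background, bars run from the first to the third quartile, black lines are medians, and n is the number of peaks. Gene-body peaks, at the top with a median of 4.75, overlap every other class along most of their range.

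The classes nearest in place gave close values. Peaks across a gene start had a median of 4.79 (n = 539), peaks inside a named gene within 1000 bp of its start 4.70 (n = 794), and peaks outside within 1000 bp 4.75 (n = 285). Peaks 1 to 10 kb outside and over 10 kb outside both had a median of 5.04. The median width was 417 bp at gene-body peaks (392 to 439), against 524 bp across a start, 396 bp inside within 1000 bp of it, and 363, 391 and 388 bp outside within 1 kb, at 1 to 10 kb and over 10 kb.

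The 3 highest gene-body peaks were at EPHA3, ZNF264 and TYK2. EPHA3 (ENSG00000044524), a receptor tyrosine kinase for ephrins, had a peak at chr3:89114256-89115067, 6732 bp from the gene start, with 29 fragments over a background of 1.70 (11.1-fold, 7.57 to 15.8). The same gene had a peak across its start of 9.27-fold (6.07 to 13.6), and the intervals of its 2 peaks overlapped. ZNF264 (ENSG00000083844), a zinc finger gene, had a peak at chr19:57200402-57200884, 29.2% of the way along the gene, with 28 fragments (10.4-fold, 7.01 to 14.8). TYK2 (ENSG00000105397), a Janus kinase of cytokine and interferon receptors, had a peak at chr19:10378408-10379130, 2268 bp from its start, with 30 fragments (10.0-fold, 6.88 to 14.2). These 3 were the only gene-body peaks with a fold of at least 10, that is 0.645% of gene-body peaks, against 0.751% of all peaks.

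CD4, the coreceptor of helper T cells, had a peak of 8.58-fold (5.57 to 12.7), 7178 bp from its start. SOS1, the exchange factor that loads RAS with GTP, reached 7.74-fold (4.92 to 11.6) over a RefSeq start of the gene, at a deposited distance of 3311 bp. TSLP, an epithelial cytokine, had the same 21 fragments and the same fold, also over a RefSeq start of its own. RIPOR1 had a peak of 8.70-fold, and LRP1B, a large receptor of the LDL receptor family, one of 8.30-fold. The LRP1B peak, at a deposited distance of 1357 bp, covered a RefSeq start of the gene. The intervals of all 20 highest peaks overlapped that of EPHA3, so no order among them is drawn.

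CRTC1, a coactivator of CREB, had a peak of 8.34-fold (5.47 to 12.3), 17037 bp from its start. KMT5B, a methyltransferase of histone H4, had one of 8.24-fold (5.64 to 11.6), 15483 bp from its start. ZBTB41, a zinc finger gene, reached 8.01-fold, with its nearer edge 664 bp from the deposited start. HEY1, a repressor induced by Notch, reached 7.71-fold (5.10 to 11.2). LINC00582, a long non-coding RNA gene, had the highest peak in a gene without a protein product, at 9.78-fold (6.74 to 13.8).

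MMS19, which delivers iron-sulfur clusters to DNA repair enzymes, had a peak of 9.64-fold (6.37 to 14.1), its nearer edge 411 bp from the deposited start. STX8, a syntaxin of endosomes, had one with 24 fragments over a background of 1.78 (95% interval of the fold 5.89 to 13.2). The STX8 peak covered a RefSeq start of the gene. DERA, the deoxyribose-phosphate aldolase, had one of 8.83-fold (6.19 to 12.2), 25549 bp from its start. ARPC5L, a subunit of the actin-branching complex, reached 7.71-fold. NT5DC3 reached 7.68-fold, with its nearer edge 633 bp from the deposited start. NBPF19 reached 7.79-fold, but it belongs to a family of near-identical copies, so its peak could belong to another copy.

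**Figure D2:**
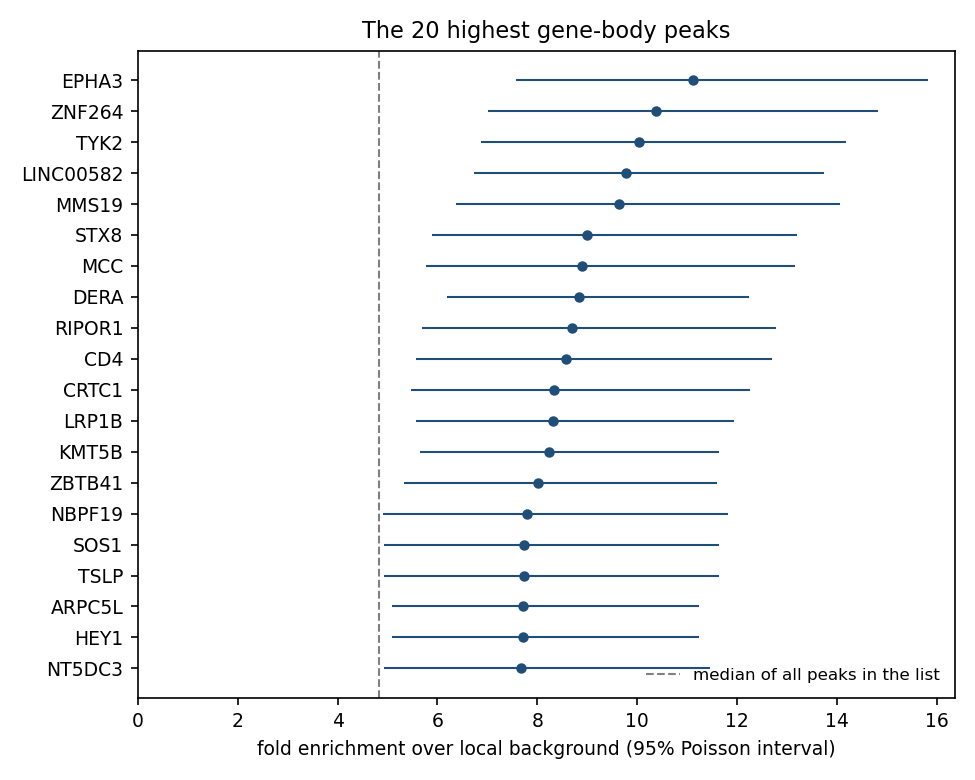
The 20 gene-body peaks with the highest fold enrichment. Points are the deposited fold over local background, lines are exact 95% Poisson intervals for counting error in the fragments, and the dashed line is the median of all peaks. The intervals overlap one another, from EPHA3 at 11.1 to NT5DC3 at 7.68.

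Few gene-body peaks stood apart from the list. The interval lay wholly above the list median of 4.82 at 25 of the 465 peaks, or 5.38% (3.51 to 7.83), and at 5.46% of all peaks. Besides the 20 highest peaks, those of PCDH9-AS2, HIVEP1, PDLIM1, KLF12 and TMEM219 met this, from 7.67 to 7.31-fold. They are named after their values were seen. Among the lowest gene-body peaks were those at HNRNPLL, a splicing regulator (2.64-fold, 1.70 to 3.94), NPTN, neuroplastin (2.79-fold), and TTC28 (2.87-fold). They were not the peaks with fewest fragments: HNRNPLL had 22, above the gene-body median of 18, over a background of 7.71. A high fold often, but not always, went with a low background. Of the 20 highest peaks, DERA at 2.96 and KMT5B at 2.76 lay above the gene-body median background of 2.61. EPHA3, MMS19, MCC and NBPF19 were at the list's lowest background, 1.70. That background occurred at 10.5% of gene-body peaks and 12.5% of other annotated peaks, and its part in the ranking was not tested.

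The median fold varied with distance into the gene. The median fold was 4.44 at deposited distances of 1000 to 1250 bp (n = 91), 4.57 at 1250 to 1500 bp (n = 67), and 4.72 at 1500 to 2000 bp (n = 72). It was 4.74 at 2000 to 5000 bp (n = 98), 5.21 at 5 to 10 kb (n = 52), 5.06 at 10 to 50 kb (n = 68) and 4.75 over 50 kb (n = 17). The median background moved the other way, at 3.07 fragments in the first of these bins and 2.35 at 5 to 10 kb, while the median fragments at the peak were 19 and 17.5. The quartiles of fold overlapped between all of these bins, and the part of the background in this order was not tested. At the 55 peaks with no RefSeq start within 10 kb the median fold was 5.34 (quartiles 4.31 and 6.25).

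With the limit at 1000 bp, most gene-body peaks lay in the first 10% of their genes. The median deposited distance was 2051 bp, with quartiles of 1340 and 6965 bp. The peak centre lay a median of 6.65% of the way along the gene (5.26 to 8.79). In the first 10% of the gene lay 269 of the 465 peaks (57.8%, 53.2 to 62.4), and 424 lay before its middle (91.2%, 88.2 to 93.6). These positions moved with the limit: over 2000 and 5000 bp the median position was 19.5 and 26.3%, and the share in the first 10% was 34.9 and 18.2%. Counted from the nearer edge of the peak, the median position was 11.0%. At the limit of 1000 bp, the next steps of 10% held 63, 39, 32, 21, 15, 10, 6, 5 and 4 peaks. The remaining one was the RPRM peak, at chr2:153476983-153477355 over the gene's end (5.93-fold, 3.48 to 9.55), at a short gene for a p53-induced cell cycle inhibitor.

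**Figure D3:**
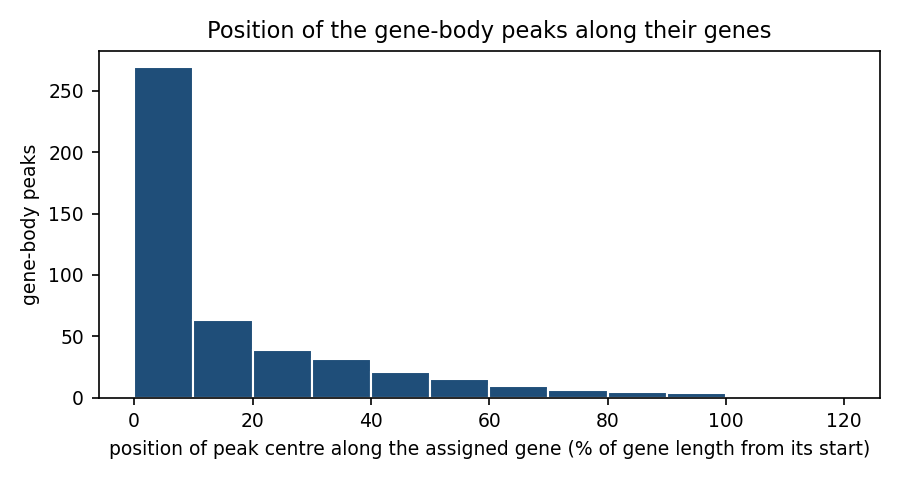
Number of gene-body peaks by position along the assigned gene. The horizontal axis is the peak centre as a percentage of gene length from the gene start, in steps of 10%. The first step holds 269 of the 465 peaks and the last step within the gene 4.

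This position may depend on how peaks were assigned to genes, which was not tested. By its symbol, the gene assigned to a peak was often not the gene around it. Of 832 peaks inside a protein-coding gene and over 1000 bp from both of its ends, 369 were assigned to the gene around them. Of the others, 280 went to a gene without a symbol, which could not be matched to the gene around the peak, and 183 to another named gene. Gene-body peaks made up 301 of the 832, so the set leaves out many peaks deep in genes. The genes with gene-body peaks were long, with a median of 54061 bp against 36589 bp for the 1843 other named genes with a peak, and against 24092.5 bp for all protein-coding genes in RefSeq. A short gene can hold no peak far from its start under this rule.

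The deepest gene-body peaks were at BBX, TRPS1 and PPP2R2C. BBX, an HMG-box gene, had its farther peak at chr3:107697757-107698181, 174821 bp from the start and 60.7% of the way along the gene (6.14-fold, 4.12 to 8.84). Its other peak, 2097 bp from the start, reached 3.03-fold (1.91 to 4.60), and the intervals of the pair overlapped. TRPS1, a GATA-type repressor gene, had a peak 142421 bp from its start (5.04-fold, 3.14 to 7.74). PPP2R2C, a regulatory subunit gene of protein phosphatase PP2A, had one at 92036 bp (4.15-fold), with a RefSeq start of the same gene 776 bp away.

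The limit of 1000 bp acted differently on the strands. The deposited distance was counted from the peak's lower coordinate, which for a gene on the minus strand is the edge farther from the start. Of the 465 peaks, 263 were at minus-strand genes and 202 at plus-strand genes, although peaks inside named genes or over their ends were 615 and 644. By this construction the nearer edge of 98 minus-strand peaks and 0 plus-strand peaks lay within 1000 bp of the start. Counted from the nearer edge, 367 peaks remained over 1000 bp, and the closest of the 98 reached within 66 bp of the start. The median distance of the nearer edge was 1258 bp at minus-strand genes and 2957 bp at plus-strand genes.

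**Figure D4:**
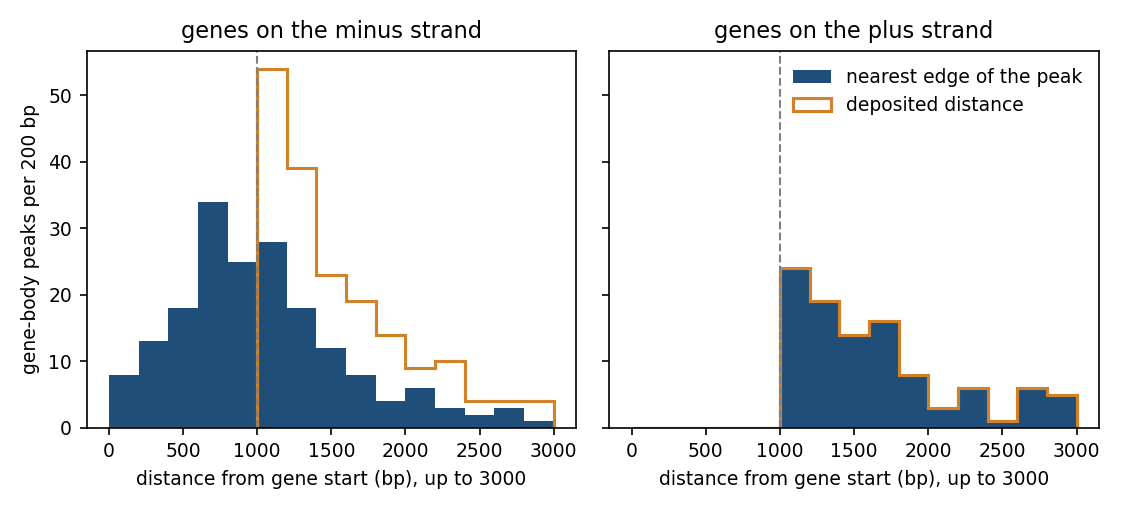
Distance of gene-body peaks from the gene start, in bins of 200 bp up to 3000 bp, for minus-strand genes at the left and plus-strand genes at the right. Filled bars use the edge of the peak nearer to the start, the outline uses the deposited distance, and the dashed line is the 1000 bp limit. The 98 peaks left of the limit are all at minus-strand genes.

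Peaks on both sides of the limit had overlapping heights. Just inside the rule, by deposited distance, were IRX6, a homeobox gene, at 1001 bp (3.30-fold), SMARCA2, an ATPase of the SWI/SNF remodelling complex, at 1003 bp (4.10-fold), and PLD1, a phospholipase, at 1020 bp (4.34-fold). Just outside were SNHG6, a small nucleolar RNA host gene, at 998 bp (5.27-fold), NBPF11 at 998 bp (3.61-fold) and FBXL14, an F-box gene, at 993 bp (3.72-fold). The intervals of all 6 overlapped.

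Gene-body peaks were then set against every RefSeq start in place of the one deposited for the gene. A start of any gene lay within 1000 bp of 226 of the 450 gene-body peaks with starts to compare (50.2%), against 67.9% of 2860 other annotated peaks and 65.5% of all peaks compared. Within 10 kb a start lay at 87.8% of gene-body peaks, against 78.1% of other annotated peaks. The latter include peaks at genes without a symbol (48.4%) and peaks over 10 kb outside the gene (29.03%), which the rule leaves out. In the remaining classes the share was above that of gene-body peaks, from 96.9% at 1 to 10 kb outside to 99.1% across a start. The higher share against the pooled peaks thus depends on which classes are pooled. Of the 450 gene-body peaks, 212 lay within 1000 bp of a start of their own gene (47.1%, 42.4 to 51.8) and 55 within 1000 bp of another gene's start (12.2%, 9.34 to 15.6). A start of any gene lay under 58 of them (12.9%, 9.93 to 16.3), against 28.0% (26.3 to 29.7) of other annotated peaks. For peaks across the deposited start this share was 79.9%, and for peaks within 1000 bp inside it 24.0%. The rule leaves out peaks at a deposited distance of up to 1000 bp, and the other annotated peaks include them. The lower shares of gene-body peaks over a start or within 1000 bp of one thus follow in part from the selection. No RefSeq start lay within 1000 bp of 224 gene-body peaks (49.8%), and none within 10 kb of 55 (12.2%). Among the peaks whose nearer edge was over 1000 bp from the deposited start, an own start still lay under 30 of 354 (8.47%, 5.79 to 11.9). The median fold was 4.68 with a start under the peak (n = 58) and 4.75 without one (n = 392), with quartiles of 4.16 and 5.50 against 4.04 and 5.64.

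Further genes had an own start under a peak well inside the deposited gene, by the deposited distance of the peak. SLC36A1, an amino acid transporter gene, had one under a peak 10552 bp from the deposited start (6.56-fold, 4.33 to 9.56), and CAPN2, a calpain protease gene, one at 10782 bp (3.08-fold, 2.17 to 4.26). CDC25B, a phosphatase that activates mitotic kinases, had one at 8941 bp (5.04-fold). KMT5A, a methyltransferase of histone H4, had one at 4815 bp (4.78-fold), and LHX9, a LIM homeobox gene, at 3838 bp (5.34-fold). These genes were named for the place of their peaks after their values were seen. Starts of another gene lay under 16 gene-body peaks (3.56%, 2.05 to 5.71). Among these, the peak assigned to VTN, vitronectin, covered a start of SARM1, an NAD-cleaving enzyme of axons (5.93-fold). The peak assigned to WTAP, a subunit of the RNA methyltransferase complex, covered a start of SOD2, the mitochondrial superoxide dismutase (4.60-fold). The peak assigned to PAX6, an eye development factor, covered a start of PAX6-AS1, its antisense RNA gene (4.57-fold). At such peaks the gene concerned cannot be told apart by position.

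The starts under gene-body peaks were rich in CpG. In the RefSeq windows, start positions of 63 genes lay under 57 gene-body peaks. Of the 73 windows of these starts, 24 lay wholly under a peak, so the counts include bases outside the peaks. These windows held a median of 25 CpG sites per 300 bases (quartiles 20 and 30.5, range 5 to 51), against 26 (19 and 33) at 805 genes with a start under another peak and 14 (3 and 28) at all 27305 genes. By the same windows, GC content had a median of 67% at the 63 genes, against 65.3% at the 805 genes and 58.3% at all genes. The 5 genes with inner starts printed above are among the 63, so their place in this range is no separate finding. For MME and DNAH14 the window counted here was another start under the same peak, with 19 and 21 CpG sites.

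**Figure D5:**
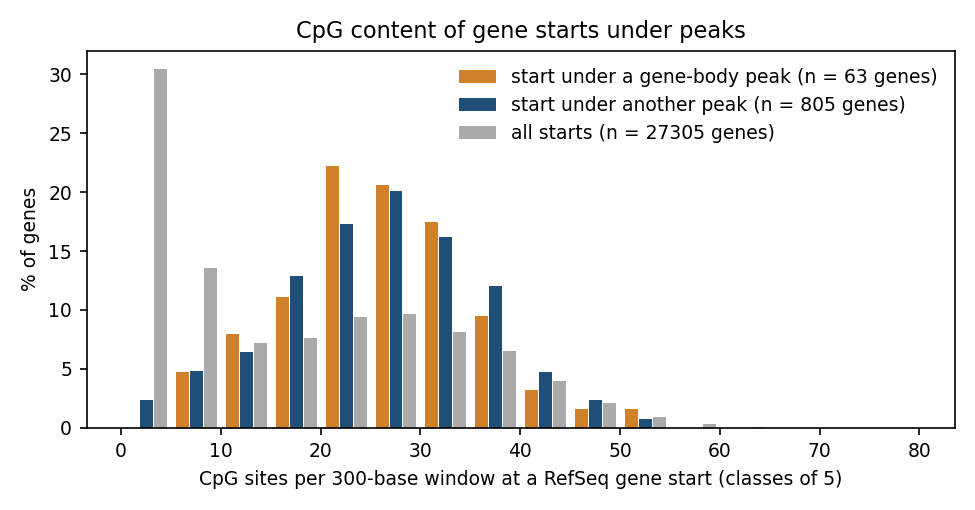
CpG sites per 300-base RefSeq start window, in classes of 5, as a percentage of genes. Orange bars are genes with a start under a gene-body peak, blue bars are genes with a start under another peak, and grey bars are all genes. Orange bars use a window whose start lay under the peak, and blue and grey bars the first listed window of each gene. The lowest class, 0 to 4 sites, holds none of the 63 genes under gene-body peaks and is the fullest class among all genes.

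Short motifs were searched in the same windows on both strands, with 1 window per gene. For genes with a start under another peak and for all genes, this was again the first listed window. Windows that reached beyond their peak were included, so a motif may lie outside the peak. The GATA core AGATAA was in 3 of the 63 windows (4.76%, 0.993 to 13.3), against 4.60% of genes with a start under another peak and 10.5% of all genes. AGATAA was in the windows of CNN3, a calponin gene, FRMD5 and PGAM1. A second GATA form, TGATAA, was in 0 of 63, which allows up to 5.69%. It was in 5.59% of genes with a start under another peak and 7.76% of all genes. The ETS motif CCGGAAG was in 5 (7.94%, 2.63 to 17.6), against 15.5% and 10.7%. The longer EVI1 motifs GACAAGATA and GAAGATGAG were in 0 of 63, which allows up to 5.69% by the exact interval, against 0.110% and 0.348% of all genes. At the shares seen over all genes, 63 windows would hold less than 1 copy of either. The SP and KLF motif GGGCGGGG was in 12 windows (19.0%), against 32.0% and 22.9%, and the CCAAT box CCAAT in 15 (23.8%), against 30.2% and 35.7%. The search covered start windows only, because no genome sequence was used for the rest of the peaks.

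Most genes had a single gene-body peak. There were 422 genes with 1 gene-body peak, 20 with 2, and 1, GSE1, with 3. The GSE1 peaks, at a gene linked to corepressor complexes, lay at 2781, 3602 and 4153 bp from the start, with folds of 3.69, 4.98 and 4.40. Of the 465 peaks, 62 were in a gene that also had a peak within 1000 bp of its start (13.3%, 10.4 to 16.8). PPP1R15A, the stress-induced GADD34, had gene-body peaks of 5.40-fold (3.22 to 8.57) and 6.08-fold (3.63 to 9.65), and a start peak of 6.07-fold. TNFRSF1A, the receptor of tumour necrosis factor, had 6.66 and 4.04-fold in the gene and 6.30-fold at the start. JADE2, a subunit gene of a histone acetylation complex, had 6.33 and 6.37-fold in the gene and 5.56-fold at the start. In all of these genes the intervals of the peaks overlapped.

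Among the other genes with a pair of gene-body peaks, KAZALD1 had 7.16-fold (4.60 to 10.7) and 3.13-fold (1.90 to 4.91) in a gene of 6291 bp. HIC2, a zinc finger repressor gene, had 5.89 and 5.63-fold, and CDC42EP4, an effector of CDC42, 6.17 and 4.53-fold. SLC30A10, a manganese exporter gene, had 5.80 and 3.73-fold. STK11, the LKB1 tumour suppressor kinase, had 5.62 and 4.15-fold, and VCAN, the matrix proteoglycan versican, 5.36 and 4.15-fold. PCDH9, a protocadherin, had 5.32 and 3.88-fold, RNF213, a giant ubiquitin ligase, 5.31 and 4.82-fold, and BAZ2A, a subunit of a nucleolar remodelling complex, 5.30 and 3.13-fold. SFXN2, a mitochondrial carrier gene, had 5.63 and 4.15-fold and CNKSR3, a scaffold gene, 5.08 and 4.85-fold. The intervals overlapped within every one of these genes.

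The pathway lists gave small counts, which were read against the share of all protein-coding genes with a gene-body peak, 2.07% (415 of 20056). Long genes can hold such peaks more easily, and the median gene length was above that of all protein-coding genes in every list but the zinc finger and olfactory ones. The TGF-beta and BMP list, the pathway whose SMAD3 protein MECOM is known to bind and inhibit, had gene-body peaks at 5 of 41 genes (12.2%, 4.08 to 26.2), with a median gene length of 81895 bp. They were the receptor gene BMPR1B (6.67-fold, 4.15 to 10.2), 83250 bp from its start, and the ligand gene BMP7 (4.82-fold). SMAD2, a signal transducer, had a peak at a deposited distance of 1063 bp that reached within 283 bp of the deposited start and covered a RefSeq start of the gene (5.34-fold, 3.14 to 8.59). SMAD3, another transducer, had one 1173 bp from its start (4.34-fold, 2.79 to 6.47), and the ubiquitin ligase gene SMURF1 one of 5.04-fold. Their median of 5.04 lay within the quartiles of all gene-body peaks. With a limit of over 2000 bp, only BMPR1B of the 5 kept a gene-body peak. The WNT list had 3 of 52 genes (5.77%), the adaptor DVL3 (5.56-fold), the ligand WNT9A (4.94-fold) and the corepressor TLE3 (3.89-fold).

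Chromatin regulators had 6 of 87 genes (6.90%, 2.57 to 14.4), with a median fold of 4.02 and a highest of 4.63. KAT2B, an acetyltransferase reported to acetylate MECOM, had 4.63-fold, SMARCA2 4.10-fold, and TET1, which oxidises methylcytosine, 4.04-fold. KDM6B, a demethylase of histone H3, had 4.00-fold. The median of these 6 peaks lay below the gene-body median of 4.75, and each interval included that median. Blood and leukaemia transcription factors had 3 of 49 genes (6.12%, 1.28 to 16.9), among them MYC (4.98-fold, 2.93 to 8.02) and the repressor gene BCL6 (4.79-fold, 2.94 to 7.43). Zinc finger genes named ZNF or ZSCAN had 6 of 538 genes (1.12%, 0.410 to 2.41), led by ZNF264, with ZNF608 (5.78-fold), ZNF704 (5.40-fold) and ZNF451 (5.26-fold) next.

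Cadherins and catenins had 3 of 37, PCDH10 (5.71-fold), PCDH9 and CDH2, N-cadherin (3.47-fold). Axon guidance and synaptic adhesion had 2 of 71, EPHA3 and the netrin receptor gene NEO1 (4.34-fold). The MAP kinase cascade had 2 of 61, SOS1 and the stress kinase MAP3K5 (3.38-fold), and receptor tyrosine kinases other than EPH had 1 of 38, PDGFRA (5.50-fold). Ligand-gated receptors had 2 of 45, the glycine receptor gene GLRA3 (7.05-fold, 4.33 to 10.9), 50827 bp from its start, and the IP3 receptor gene ITPR2 (5.27-fold). Voltage-gated channels had 1 of 42, the calcium channel gene CACNA1E (3.95-fold). Collagens, laminins and integrins had 3 of 86, the laminin gene LAMA4 (5.57-fold), COL9A3 (4.26-fold) and ITGB1BP1 (5.52-fold), an integrin-binding protein that the name pattern takes in.

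The remaining lists ranged more widely in count. E3 ligases and deubiquitinases had 6 of 73 genes (8.22%), among them the cullin gene CUL4B (5.82-fold), FBXW7, which targets MYC and cyclin E (5.40-fold), RNF213 and SMURF1. Solute carriers had 14 of 385 (3.64%), led by SLC36A1, SLC49A4 (6.30-fold), SLC25A45 (6.03-fold) and SLC30A10. Kinesins, dyneins and myosins had 4 of 101, MYO9A (4.69-fold), DNAH10 (4.65-fold), DNAH14 and the non-muscle myosin gene MYH9 (3.85-fold). DNA repair had 1 of 53, BRCA1 (5.40-fold, 3.11 to 8.81), at a deposited distance of 1088 bp and with its nearer edge 211 bp from the start, and ABC transporters had 1 of 45, ABCA13 (5.56-fold). Mast cell genes had 1 of 38, IL3RA (5.04-fold, 2.85 to 8.36), in a region shared by the X and Y chromosomes, and genes at common fragile sites 1 of 31, LRP1B. Phosphodiesterases and cAMP signalling had 0 of 51, protein tyrosine phosphatases 0 of 37, and olfactory receptors 0 of 390, which allows up to 0.941%. The median length of the olfactory genes was 2985 bp.

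Nearly all the peaks were in protein-coding genes. RefSeq matched 439 of the 443 symbols and gave 436 peaks in protein-coding genes, 17 in long non-coding RNA genes and 8 in transcribed pseudogenes, with 4 unmatched. The long non-coding genes included LINC00582, PCDH9-AS2, an antisense RNA of PCDH9, and LINC01411, whose peak lay 82877 bp from its start (4.75-fold). No gene-body peak lay over a transfer RNA, snoRNA, snRNA or ribosomal RNA gene or a microRNA hairpin. Of all 3462 peaks, 28 lay over a transfer RNA gene and 4 over a hairpin. A peak over such a gene may have been assigned to that gene and so fall outside the rule, which was not checked. No difference is drawn from these small counts. Chromosome 1 held 57 gene-body peaks, 6 held 40 and 3 held 33. Chromosome 22 held 18, or 3.87% of gene-body peaks against 2.48% of all peaks, and chromosome 14 held 4, or 0.860% against 2.80%.

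The densest window of 1 Mb was on chromosome 22 from 21 to 22 Mb, with 6 gene-body peaks. These were the pair of HIC2, a pair in PI4KAP2 (4.17 and 3.78-fold), and those of TMEM191C (6.54-fold) and RIMBP3C (3.86-fold). PI4KAP2, TMEM191C and RIMBP3C have near-identical copies elsewhere on the chromosome, so their peaks could belong to another copy. The next was on chromosome 19 from 48 to 49 Mb, with 5 peaks. These were the pair of PPP1R15A and those of PLEKHA4 (5.76-fold), CA11, a carbonic anhydrase-related gene (5.31-fold), and ELSPBP1 (5.04-fold). The windows were chosen after their counts were seen.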

How the data were processed

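Annotated peaks of the WT library were used, tied to that library by the name of the table alone. The deposited table has no header, and its columns were identified from their values. Per the submitters' processing notes, the build was hg38 and the tools named, with no role stated, included HOMER 4.10, MACS2 2.1.1.20160309.6, Bowtie2 2.4.2 and ChIPseeker 1.18.0. The sources used here do not give the control library or any pooling. The deposited fold, a ratio over local background, is the authors' own value for each peak. The −log10 p-value and the −log10 q-value of each peak were deposited as the authors' caller wrote them. The deposited score was 10 times the −log10 q without its decimals, throughout the 3465 lines.

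Of the lines, 3 repeated a peak with another gene. Fragments and background were solved from (fragments + 1)/(background + 1) as the fold and the Poisson tail as p, within 0.001, and all 3462 peaks gave a single solution. The procedure was tested on simulated data, with 100% of 500 peaks recovered. Intervals are exact 95% Poisson for fold, with the background held fixed, exact binomial for shares, and from order statistics for medians, combined in quadrature for the difference of 2 medians. Gene types and starts came from RefSeq on GRCh38.p14, which shares its chromosome coordinates with hg38. Start windows spanned 250 bases before to 50 after a start. The window table covered 366 of the 450 peaks' own genes, and the outer end of the RefSeq span was added as a start, so that 446 peaks had an own start. The other 15 peaks were not used for start statistics. Exon positions and genome sequence were not used, so exon or intron placement was not determined.

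Members, the 23 gene lists and 17 motifs were chosen with earlier results of these data known. Named by rule were the 20 highest peaks, up to 15 genes with 2 or more gene-body peaks, up to 4 genes per list by fold, peaks over a gene end, the 3 deepest, the 3 on each side of the limit and the 5 lowest. A few of these genes, and 1 list, are left out of the text. Alternatives changed the distance limit, its reference point, the q and fold thresholds, merging, chromosomes and gene classes. Analyses used Python 3.11.15, pandas 2.3.3, numpy 2.4.6, scipy 1.17.1 and matplotlib 3.10.9.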

Additional observations from a re-analysis of the deposited data

How the results depend on the processing

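At limits of over 500, 2000 and 5000 bp the number of gene-body peaks was 804, 235 and 137, and their share of annotated peaks 23.5, 6.87 and 4.01%. The median position along the gene was then 2.49, 19.5 and 26.3%, the share in the first 10% of the gene 71.6, 34.9 and 18.2%, and the share within 1000 bp of another gene's start 17.1, 4.82 and 3.79%. Lists held 101, 35 and 20 genes with a gene-body peak, against 65 in all at 1000 bp. The share with a start peak in the same gene was 49.9% over 500 bp, where the start class overlaps the rule. Over 2000 and 5000 bp the median fold was 5.04 in both. The log2 difference from other peaks then turned to 0.064 (0.0020 to 0.125) and 0.070 (-0.0080 to 0.147). These intervals describe the list of peaks and are not a test. With a q of at most 1e-05 there were 243 peaks, a median fold of 5.56, a start peak in 9.47% and 39 listed genes. With a fold at or above the list median there were 223 peaks, a median fold of 5.67, a median position of 9.80%, 51.6% in the first 10%, a start peak in 7.17% and 38 listed genes. Both settings select on height. Measured from the peak centre, a start peak occurred in 22.3%, and with neighbours merged in 7.47%. Without peaks near another gene's start, by construction, the share near such a start was 0, and gene-body peaks were 12.0% of annotated peaks. Measured from the nearer edge, a setting chosen after seeing the data, gene-body peaks were 10.7%, their median position 11.0%, 49.0% lay in the first 10% and 8.47% near another gene's start. Without peaks that cover a RefSeq start of the assigned gene, also chosen after seeing the data, the share was 12.2%. Where no construction is named, the cause was not tested. For single gene lists, 230 counts under these settings were within 1.5 times the reported one and 69 were not. The TGF-beta and BMP list counted 1 to 6 genes, chromatin regulators 0 to 8, and E3 ligases and deubiquitinases 2 to 9. The number of peaks with a fold of at least 10 was 2 to 4 throughout. Autosomes alone, peaks inside the gene alone and protein-coding genes alone left each result named here within its interval or, for counts, within 1.5 times, except the mast cell list, which held 0 genes on autosomes alone, against 1. Leaving out a replicate was not possible with 1 library. No paired analysis was possible because the design has a single library per group. Motif shares within the peaks themselves were not run, since no genome sequence was used here. A median of 18 fragments per peak limits any ranking of peaks.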
